A study of Marmota flaviventris with 43 samples.

Results

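The transcripts that take the largest part of the counts in marmot blood are described here. They are 100 of the 22389 gene IDs in the deposited count table. Counts of each of the 43 libraries were divided by the library's sum and multiplied by 1000000 (CPM). Among the 21578 gene IDs with a mean length under 1000 bases, the 100 with the highest mean CPM over the libraries were taken, so the high level of these members is how they were chosen and not a result. The last member, ENSSTOG00000004473, had a mean of 1338 CPM and the next gene ID, ENSSTOG00000006904, had 1329 CPM. The length limit removed none of them, because the 100 gene IDs with the highest mean CPM of any length were the same 100.

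The samples are whole blood of Marmota flaviventris, the yellow-bellied marmot, a wild ground squirrel. The groups are 16 samples labelled dispersers and 27 labelled residents, and no treatment or genotype is given for either. Replicate numbers used here follow accession order within a group and only name a library. The design text calls the first group yearlings that went on to disperse. The sources used here do not give the residents' ages, or the sex, date, lane or sequencer model of each sample. Nothing in the labels says that every sample is a separate animal, so p-values measure the spread between these samples.

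Whole blood of mammals holds red cells, their young forms the reticulocytes, platelets and several kinds of white cell. Reticulocytes have lost the nucleus but still carry messenger RNA, above all for the globin chains of haemoglobin, and genes of the ribosome and the cytoskeleton are among the most abundant in white cells. Globin transcripts were depleted from these samples with a kit made for mouse, per the labels. In counts scaled to a fixed total, more reads from a few abundant transcripts leave fewer for all others, and in bulk blood fewer cells of a type and less RNA per cell cannot be told apart.

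The deposited tables hold gene IDs without symbols, and 0 of the 22389 matched the one gene table used here, of the marmot assembly mMarFla1.hap1 in RefSeq. A gene table of another annotation was not used here, so the members are given by ID, without function or sequence. Whether globin or ribosomal genes are among them was not tested, nor were blood cell markers.

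Library totals ranged from 4592338 to 15237506 counts, and the lowest count of any member in any library was 327. Counting error was thus small beside the differences between libraries. No pair of libraries had identical counts.

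The 100 members together took a large and variable part of every library. Their summed share was 36.1% ± 7.78 (SD, n = 43), with a median of 33.2%. It was lowest in resident replicate 16, at 25.8% (95% Wilson interval 25.8% to 25.9%, which covers counting error only). It was highest in disperser replicate 13, at 53.5% (interval 53.5% to 53.6%). The first 10 members held 14.3% ± 6.60 (SD, n = 43) and the first 50 held 27.6% ± 7.58 (SD, n = 43). Their SDs were thus near that of all 100. The next 100 gene IDs by the same rule held 10.1% ± 0.54 (SD, n = 43), between 9.03% and 11.4%.

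**Figure D1:**
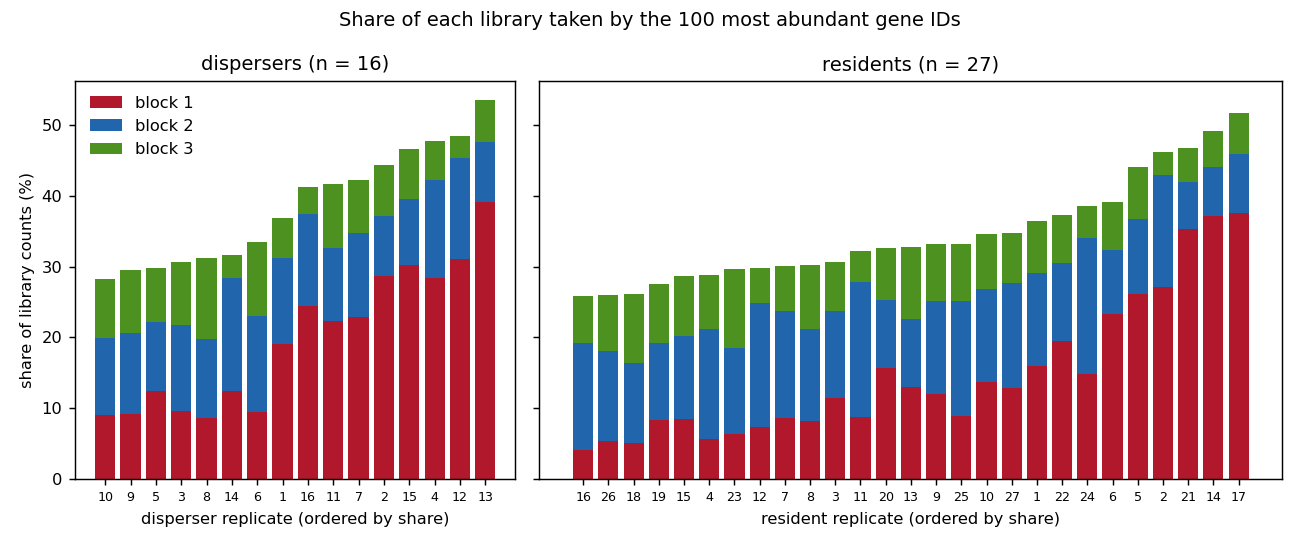
Share of library counts (%) taken by the 100 members in each library, dispersers on the left (n = 16) and residents on the right (n = 27), ordered by the summed share. Colours are the 3 blocks of co-varying members described in the text; the total runs from 25.8% to 53.5%, and block 1 runs from 4.04% to 39.1%.

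The identity of the leading transcript changed between libraries. ENSSTOG00000008000 had the most counts in 29 of 43 libraries and ENSSTOG00000014797 in 10. ENSSTOG00000027119 led in 2, and ENSSTOG00000007687 and ENSSTOG00000009017 in 1 each. In all, 31 gene IDs were among the 10 highest of at least 1 library, all of them members, and 1 of them, ENSSTOG00000027119, was there in all 43.

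ENSSTOG00000008000 had the highest mean, 39277 CPM ± 33018 (SD, n = 43). It ranged from 1537 CPM in resident replicate 16 to 119328 CPM in resident replicate 14, a 77.6-fold range with a median of 25286 CPM. As a share of counts this is 0.154% (95% Wilson interval 0.151% to 0.157%) against 11.9%. Its level therefore differed between libraries far beyond counting error, and the lowest and the highest library were both residents.

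ENSSTOG00000027119 and ENSSTOG00000020639 followed, with means of 18752 CPM ± 13090 and 17933 CPM ± 12833 (SD, n = 43). Both were highest in resident replicate 17, at 65753 and 61165 CPM, and had medians of 14488 and 12760 CPM. ENSSTOG00000014797, next in rank, was steadier, with a mean of 12818 CPM ± 4669 (SD, n = 43) and a 6.14-fold range. Its highest value, 23511 CPM, was in resident replicate 16, the library in which ENSSTOG00000008000 was lowest. The other 6 of the first 10 had means between 6557 CPM for ENSSTOG00000009017 and 11711 CPM for ENSSTOG00000014521.

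Of these 6, ENSSTOG00000014521 ran from 3425 over a median of 9337 to 41544 CPM and was highest in disperser replicate 12. ENSSTOG00000006931 was highest in the same library, at 20977 CPM, but had a range of only 4.91-fold. ENSSTOG00000008089 ran from 1437 to 34930 CPM, between the same 2 libraries as ENSSTOG00000020639. ENSSTOG00000007687 and ENSSTOG00000013016 were both lowest in resident replicate 14, at 2935 and 2869 CPM, the library in which ENSSTOG00000008000 was highest. ENSSTOG00000009017 ran from 1355 to 14901 CPM, with both ends in residents.

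Levels per length gave nearly the same leaders. In RPKM (CPM per 1000 bases of the length column, whose basis is not stated), ENSSTOG00000008000 was highest with a mean of 218569 and ENSSTOG00000020639 followed with 131620. Next came ENSSTOG00000006931 at 77893 RPKM, ENSSTOG00000014521 at 77049 and ENSSTOG00000027119 at 73107, which lie closer together than their spread between libraries. Of the 100 members, 80 were also among the 100 highest by mean RPKM, and 93 among the 100 highest by median CPM.

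The members had a median GC content of 55.5%, between 39.8% and 65.7%, against 50.2% over all gene IDs in the table and 55.3% for the next 100. Their median length was 138.8 bases, between 69 and 453, against 156.6 over all gene IDs.

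The members differed widely in how much they varied between libraries. The ratio of the highest to the lowest CPM had a median of 6.25, and it was above 10 for 30 members and above 20 for 14. On the log2 scale (CPM plus a pseudocount of 0.5), the SD over 43 libraries had a median of 0.62 for the members, 0.68 for the next 100 and 0.76 for all 10921 genes tested. Scaled by TMM factors, which correct for the composition of each library, the medians were 0.65, 0.70 and 0.64, so whether the members were steadier than other genes depended on the scaling.

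**Figure D2:**
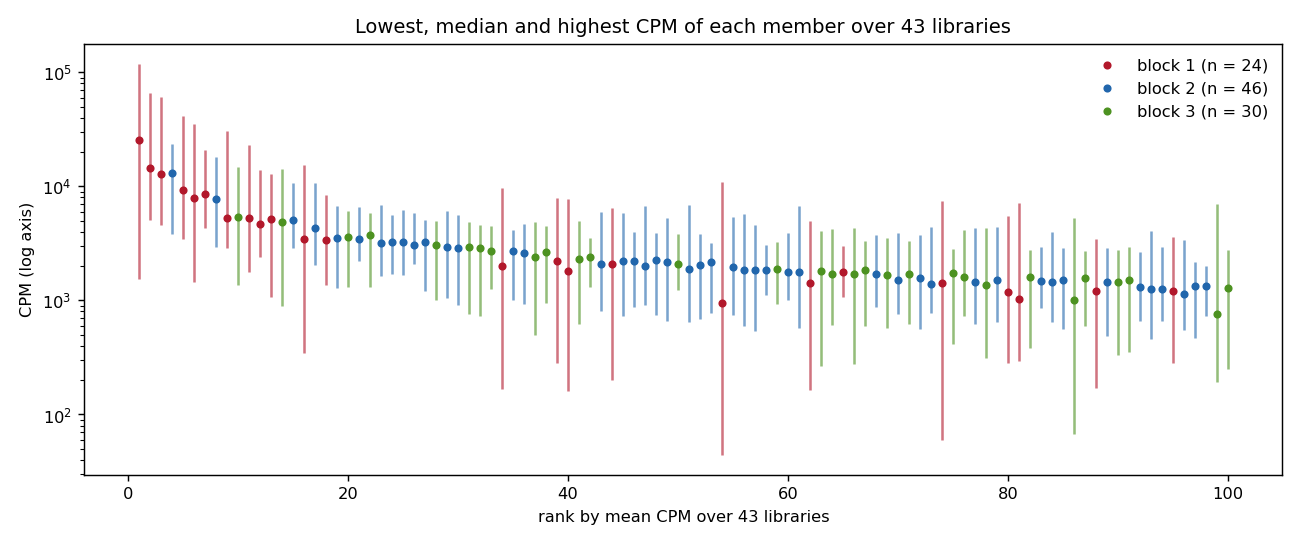
CPM of each member (log axis) by its rank in mean CPM; the point is the median and the line runs from the lowest to the highest of 43 libraries, coloured by block. The ratio of highest to lowest runs from 2.68 for ENSSTOG00000007788 to 249.3 for ENSSTOG00000007651.

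The 2 most variable members were ENSSTOG00000007651 and ENSSTOG00000024141. ENSSTOG00000007651 had an SD of 2.03 on the log2 scale, from 43.9 CPM in resident replicate 16 to 10954 CPM in resident replicate 14, with a median of 949 CPM. ENSSTOG00000024141 had an SD of 1.67, from 67.6 CPM in disperser replicate 14 to 5262 CPM in disperser replicate 8, with a median of 1006 CPM. The median of each was thus under the mean of the last member, 1338 CPM.

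The 2 steadiest were ENSSTOG00000004678 and ENSSTOG00000007788. ENSSTOG00000004678 had an SD of 0.33, between 1077 and 3011 CPM with a median of 1782 CPM. ENSSTOG00000007788 had an SD of 0.37, between 1310 and 3504 CPM with a median of 2413 CPM.

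The members were grouped into blocks by how they rose and fell across libraries. Spearman correlations of log2 CPM over the 43 libraries were computed for all 4950 pairs and grouped by average linkage into 3 blocks, a number chosen after the values were seen, so the blocks are a description with no test. Block 1 had 24 members, including 7 of the first 10, among them ENSSTOG00000008000, ENSSTOG00000027119 and ENSSTOG00000020639. Block 2 had 46 members, led by ENSSTOG00000014797 and ENSSTOG00000007687, and block 3 had 30, led by ENSSTOG00000009017. The points share libraries, depth and a fixed total, so part of every correlation comes from the scaling.

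**Figure D3:**
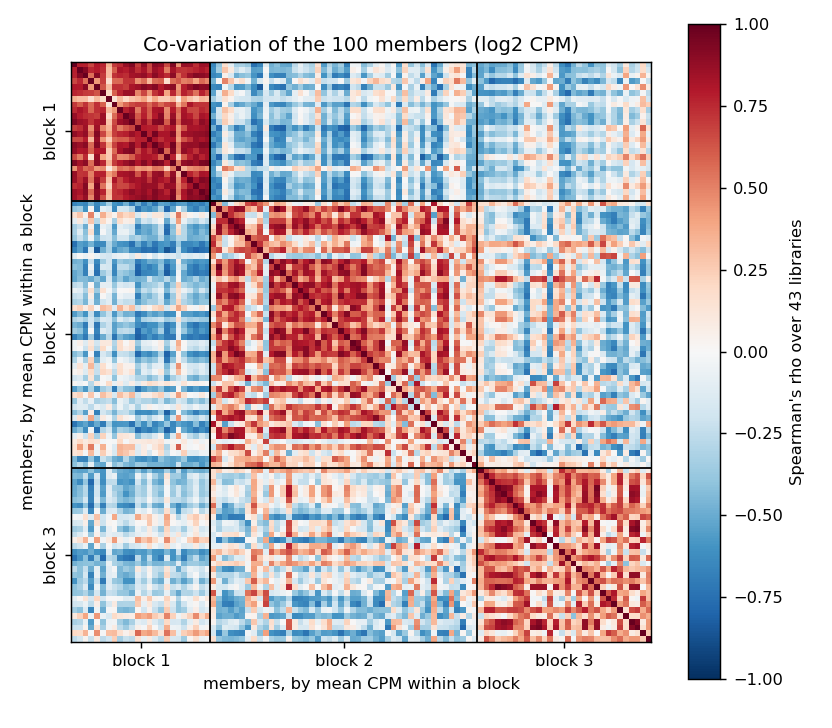
Spearman's rho between all pairs of the 100 members over 43 libraries (log2 CPM), members ordered by mean CPM within blocks 1, 2 and 3. Block 1 stands out as a square of high rho with a median of 0.76, and its pairs with block 2 have a median of -0.30.

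Within block 1 the median rho was 0.76 over 276 pairs, against 0.45 within block 2 and 0.44 within block 3. The lowest rho was 0.09 within block 1, -0.55 within block 2 and -0.41 within block 3. Blocks 2 and 3 thus also held pairs that moved apart. Between blocks 1 and 2 the median was -0.30, between 1 and 3 it was -0.20 and between 2 and 3 it was -0.11. Over all 4950 pairs the median was -0.01, and 10.3% of pairs were above 0.7 and 1.68% under -0.7. Over all pairs of the 10921 genes tested, the median was 0.25, with 10.3% above 0.7 and 0.68% under -0.7. Strong positive pairs were thus no more frequent among the members than among genes in general.

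The tightest pair was ENSSTOG00000007687 with ENSSTOG00000027323, both in block 2, with rho = 0.97 over 43 libraries and 0.93 in the authors' regressed values. The most opposed pair was ENSSTOG00000026777 of block 2 with ENSSTOG00000007651 of block 1, with rho = -0.85. Within the first removed term, described further on, it was -0.75 in 22 libraries and -0.80 in 21. It was weaker in the authors' normalized values, at rho = -0.28, and in their regressed values, at rho = -0.24. With CPM taken over the counts outside the 100 members it was -0.79. The positive pair stayed above 0.9 in all of these values, and the negative pair was already weak in the normalized values, from which no term had been removed.

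Block 1 as a whole held together under each of these settings, and the negative medians of its pairs with the other blocks did not. Its median rho was 0.82 relative to the counts outside the members, 0.86 in the authors' table of normalized values and 0.82 in their table of regressed values. Between blocks 1 and 2 the same settings gave -0.02, 0.26 and 0.24, and between blocks 1 and 3 they gave 0.02, 0.30 and 0.19. Between blocks 2 and 3 they gave -0.21, -0.04 and 0.06, so this median was more negative relative to the counts outside the members than in CPM.

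The 3 genes of all 10921 tested whose levels followed ENSSTOG00000008000 most closely over the 43 libraries were no members. They were ENSSTOG00000013370 (Spearman's rho = 0.93, mean 782 CPM), ENSSTOG00000002138 (0.93, 257 CPM) and ENSSTOG00000009683 (0.93, 321 CPM). In all, 76 tested genes had a rho above 0.8 with it, and 10 of these were members.

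Block 1 set most of the order of libraries by summed share. Over 43 libraries, its share had Pearson's r = 0.98 and Spearman's rho = 0.95 with the share of all 100, of which it is a part. Without the 2 libraries farthest from the median they were 0.97 and 0.94, and within the term described in the next paragraphs 0.98 and 0.97 at 0 (n = 22) and 0.98 and 0.96 at 1 (n = 21). Block 1 held 16.7% ± 10.1 (SD, n = 43), from 4.04% in resident replicate 16 to 39.1% in disperser replicate 13. Block 2 held 12.3% ± 2.95, between 6.56% and 19.2%, and block 3 held 7.11% ± 2.05, between 3.05% and 11.4% (SD, n = 43). Block 1 was also the most variable per member, with a median SD of 1.03 on the log2 scale against 0.53 in block 2 and 0.66 in block 3.

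Single libraries marked the ends of the blocks. Of the 24 members of block 1, 14 were lowest in resident replicate 16, and 7 each were highest in resident replicates 14 and 17. Of the 46 members of block 2, 19 were highest in resident replicate 24 and 23 were lowest in resident replicate 21. Of the 30 members of block 3, 12 were lowest in disperser replicate 12.

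The blocks also differed with a term that the authors had taken out of their values. Of 5 terms that the authors had removed from their regressed values, none named in the sources used here, 2 take exactly 2 values over the libraries. The one most closely followed by the first principal component of the genes in the authors' tables is called the first removed term. It was 1 for 21 libraries, of which 9 are dispersers and 12 residents. It was 0 for 22 libraries, of which 7 are dispersers and 15 residents. The codes 0 and 1 are arbitrary. Libraries at 1 also had more counts, 9344341 against 6658375 on average, and a higher GC content in the counts outside the members, 55.1% ± 0.58 (SD, n = 21) against 52.2% ± 1.72 (SD, n = 22).

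Members of blocks 1 and 3 were mostly higher at 1 and members of block 2 lower. The blocks were formed, and the term picked, on the same libraries, and members of a block are not independent. The counts in each block are therefore a description with no test. In block 2, 45 of 46 members were lower at 1, with a median difference in mean log2 CPM of -0.52. In block 3, 27 of 30 were higher, with a median of 0.40, and in block 1, 19 of 24, with a median of 0.58. The median over all 10921 genes tested was -0.35, and 3618 of these genes were higher at 1. Most genes were thus lower at 1, as in block 2, while most members of blocks 1 and 3 went the other way. Block 2 took 10.1% ± 1.71 of the counts at 1 (SD, n = 21) and 14.5% ± 2.13 at 0 (SD, n = 22). The 2 ranges, 6.56% to 13.6% and 11.9% to 19.2%, overlapped between 11.9% and 13.6%, where libraries at both values lay, more of them at 0. GC content also differed between the blocks, with a median of 56.1% in block 1, 52.3% in block 2 and 58.0% in block 3, and the part of GC content in these differences was not tested.

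Relations between blocks were not the same at both values of the term. At 1, blocks 2 and 3 moved together, with a median rho of 0.35 between their members, and at 0 they moved apart, with a median of -0.24. The difference was not tested. Block 1 was coherent at both, with a median rho of 0.71 at 0 (n = 22 libraries) and 0.85 at 1 (n = 21), and in both groups, with 0.66 in dispersers (n = 16) and 0.78 in residents (n = 27).

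Libraries with a larger share of the members tended to have fewer counts. Over 43 libraries, Pearson's r between the share and the total count was -0.45 and Spearman's rho -0.52, and without the 2 libraries farthest from the median share they were -0.45 and -0.52. Within the first removed term they were -0.60 and -0.55 at 0 (n = 22) and -0.66 and -0.76 at 1 (n = 21). No p is given, because the members were chosen on these libraries.

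The comparison of dispersers with residents addresses whether blood expression differs before animals leave their birthplace, and for the most abundant transcripts no difference passed the test. By edgeR's quasi-likelihood test with Benjamini-Hochberg adjustment over 10921 genes, 0 of 100 members had an adjusted p under 0.05, as for all genes (0%). At an unadjusted p under 0.05 there were also 0 members, against 2.6% of all genes tested. DESeq2 gave 0 members at both thresholds, against 2.66% of all genes at the unadjusted one. With limma-voom and quality weights 0 passed the adjusted threshold and 10 the unadjusted one, against 15.2% of all genes. Total-count scaling gave 5 at the unadjusted threshold, against 3.31% of all genes, and the first removed term as a covariate gave 1, against 3.12%. On the authors' normalized and regressed values, limma gave 4 and 3, against 2.45% and 6.41%. The fit on the regressed values made no allowance for the 5 terms already removed, so its p-values are not strictly comparable with the others. The ranges of the 2 groups in CPM overlapped for all 100 members, as for every gene tested (0% did not overlap).

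Fitted differences were small beside their errors. The median log2 fold change of the members was 0.09 (dispersers over residents), the median size 0.13 and the median SE 0.20. Over all genes these were -0.01, 0.12 and 0.22. The largest difference was 0.69, and 0 members differed by more than 2-fold. The fit gave 74 members a positive value, against 47.8% of all genes, but members of a block vary together and are not independent. Scaled by total count, 42 members were positive, against 24.1% of all genes, and the members' median turned to -0.03.

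The members of block 1 leaned to the dispersers without passing the test. In this block 22 of 24 fitted values were positive (47.8% of all genes), with a median of 0.38 and a median SE of 0.40. The medians of blocks 2 and 3 were 0.06 and 0.09. With 1 library left out they went as low as 0.00083 (block 2, without disperser replicate 12) and 0.04 (block 3, without disperser replicate 8), and as high as 0.097 (block 2, without disperser replicate 5) and 0.14 (block 3, without disperser replicate 16). Block 3 turned to -0.03 both with total-count scaling and with the first removed term as a covariate. Scaled by total count, 24 of 24 block 1 values were above 0 (24.1% of all genes). With the first removed term as a covariate 24 of 24 were also above 0 (4988 of all 10921 genes), with a median of 0.45. But with the 5 removed terms as covariates only 6 of 24 were (55.7% of all genes), with a median of -0.20. These fits share the same libraries and the same correlated members, so their counts do not add to each other. Total-count scaling moved the median of all genes from -0.01 to -0.13, and that of block 2 from 0.06 to -0.10. Leaving out 1 library at a time, the block 1 median ranged from 0.21 without disperser replicate 13 to 0.54 without resident replicate 17, so the value without disperser replicate 13 was less than 0.38 by over 1.5 times.

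**Figure D4:**
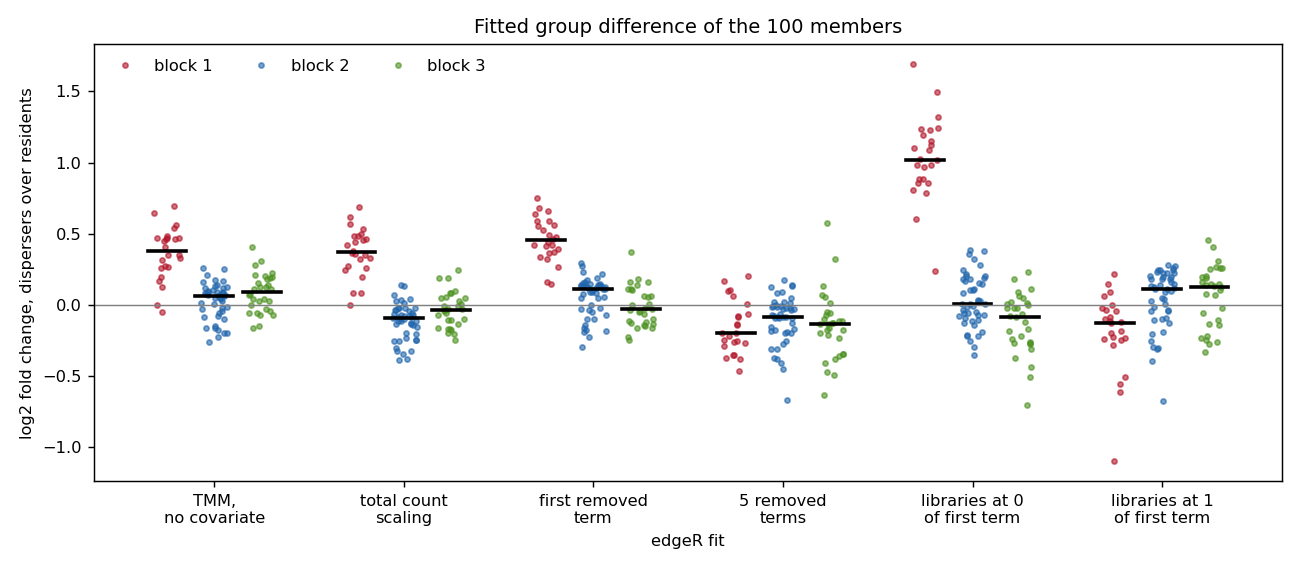
Fitted log2 fold change of each member (dispersers over residents) by block in 6 edgeR fits, with the block median as a black bar. The block 1 median is 0.38 without a covariate, -0.20 with the 5 removed terms, 1.02 where the first removed term is 0 and -0.13 where it is 1; 0 members passed an adjusted p of 0.05 in any of the 6.

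In summed share of counts, the members took 38.6% ± 8.14 in dispersers (SD, n = 16) and 34.7% ± 7.32 in residents (SD, n = 27). The lowest, median and highest disperser were at 28.2%, 39.1% and 53.5%, and the residents at 25.8%, 32.8% and 51.8%. The difference of 3.91 percentage points was smaller than the SD of either group, and the ranges overlapped over most of their length. Block 1 took 19.8% ± 9.90 and 14.8% ± 9.99, block 2 took 11.7% ± 2.13 and 12.7% ± 3.32, and block 3 took 7.10% ± 2.42 and 7.11% ± 1.84 (SD, n = 16 and 27). Block 1 was the only block with a higher mean in dispersers. Without the 10 most abundant genes of each library, the members' share averaged 25.7% ± 3.64 for the 16 dispersers and 24.1% ± 3.12 for the 27 residents (SD).

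ENSSTOG00000008000, the most abundant member, had 48099 CPM ± 34016 in dispersers (SD, n = 16) and 34049 CPM ± 31895 in residents (SD, n = 27). The dispersers ran from 13421 over a median of 35525 to 105306 CPM, and the residents from 1537 over 24358 to 119328 CPM. The residents covered the whole range of the dispersers. The fitted log2 difference was 0.47 (SE 0.49, unadjusted p = 0.35 and Benjamini-Hochberg adjusted p = 0.9998 by edgeR), and 9 of 16 dispersers were above the resident median.

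The members with the smallest unadjusted p among those higher in dispersers were ENSSTOG00000009017 and ENSSTOG00000012565. ENSSTOG00000009017, in block 3, had 2217, 6010 and 13574 CPM as its lowest, median and highest value in dispersers and 1355, 5041 and 14901 CPM in residents. By edgeR the log2 difference came to 0.41 (SE 0.22, unadjusted p = 0.0681). ENSSTOG00000012565, in block 1, had 2226, 7958 and 12799 CPM in dispersers and 1063, 4464 and 12780 CPM in residents, with 0.65 (SE 0.35, edgeR unadjusted p = 0.0734). Here 12 of 16 dispersers were above the resident median, but the groups spanned nearly the same range. Both had an adjusted p of 0.9998.

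Among those lower in dispersers the smallest p belonged to ENSSTOG00000028012 and ENSSTOG00000014797, both in block 2. ENSSTOG00000028012 had 722, 1311 and 2427 CPM as its lowest, median and highest value in dispersers and 559, 1925 and 2869 CPM in residents, and 1 of 16 dispersers was above the resident median. By edgeR the log2 difference came to -0.22 (SE 0.15, unadjusted p = 0.142). ENSSTOG00000014797 had 5843, 10599 and 16945 CPM in dispersers and 3828, 14259 and 23511 CPM in residents, with -0.20 (SE 0.14, edgeR unadjusted p = 0.168) and 3 of 16 dispersers above the resident median. Both had an adjusted p of 0.9998. Across all members, between 1 and 13 of the 16 dispersers were above the resident median, with 12 or more for 8 members and 4 or fewer for 11. Over all genes tested, 2.43% had 12 or more and 17.1% had 4 or fewer.

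The lean of block 1 was found at one value of the first removed term and not at the other. Among the 22 libraries at 0, all 24 fitted values of block 1 were positive (46.3% of all genes), with a median of 1.02 and a median SE of 0.42. Block 1 was formed by correlation over libraries that include these 22, so its 24 values are not independent. At an unadjusted p under 0.05 there were 18 members, all higher in dispersers and all in block 1. Of all 10936 genes tested there, 877 had an unadjusted p under 0.05 in either direction, and 474 of them were higher in dispersers (4.33% of all genes). By edgeR, 0 members passed the adjusted threshold (smallest adjusted p = 0.519). Among the 21 libraries at 1, the block 1 median was -0.13 with 4 of 24 above 0 (44% of all genes) and 0 members at an unadjusted p under 0.05 (2.81% of all genes).

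The block 1 share, a sum of the counts of the same members, shows the same pattern. At 0 it was 21.1% ± 7.92 in dispersers (SD, n = 7) and 10.97% ± 5.72 in residents (SD, n = 15), with ranges of 9.61% to 31.1% and 4.04% to 27.2%. At 1 it was 18.8% ± 11.6 (SD, n = 9) and 19.6% ± 12.2 (SD, n = 12). ENSSTOG00000008000 is a part of this share. At 0 it had 56111 CPM ± 37447 in dispersers (SD, n = 7) against 22079 ± 19742 in residents (SD, n = 15). At 1 it had 41867 ± 31905 (SD, n = 9) against 49011 ± 38326 (SD, n = 12). The groups overlapped at both values.

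**Figure D5:**
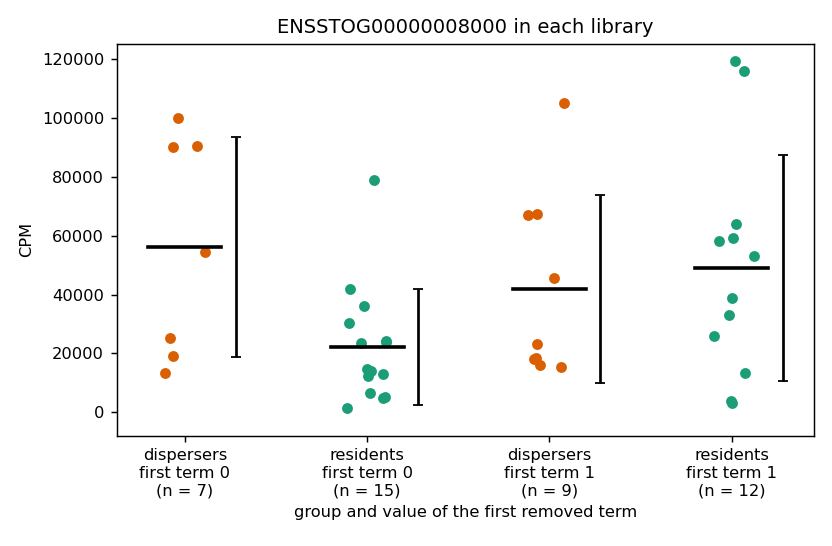
CPM of ENSSTOG00000008000 in each library by group and value of the first removed term; points are libraries, bars are means and the error bars beside them 1 SD. Means are 56111 and 22079 CPM for dispersers and residents at 0, and 41867 and 49011 CPM at 1.

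The difference between these contrasts was tested for each gene by the interaction of group and term. By edgeR, 0 of 100 members passed an adjusted p of 0.05 (0% of all genes; smallest adjusted p of a member 0.514). At an unadjusted p under 0.05 there were 3 members, against 7.87% of all genes, and limma-voom also gave 0 past the adjusted threshold. All 24 interaction values of block 1 were negative (50.4% of all genes were above 0), with a median of -1.14 and a median SE of 0.72, and 1 of them had an unadjusted p under 0.05. These 24 values are not independent either. The contrast at 0 was therefore not shown to differ from that at 1 for any member.

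With the 5 removed terms as covariates, 8 members had an unadjusted p under 0.05 by edgeR, 1 higher and 7 lower in dispersers, against 6.48% and 4.6% of all genes. None passed the adjusted threshold (smallest adjusted p = 0.395). None of the 8 was in block 1. The median of all 100 turned from 0.09 to -0.12 in this fit, and 22 members were positive, against 55.7% of all genes.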

How the data were processed

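Whole blood RNA of 43 samples was sequenced after globin depletion, per the labels' protocols. Trim Galore 0.3.1, TopHat2 2.1.0, limma and HTSeq were used, per the submitters' processing notes, which give them no role here. The genome build is not given in the sources used here. The deposited counts are whole numbers per gene ID, and the same deposited table has a mean length and, as a fraction, the GC content of each gene. The authors' normalized log2 values (11381 genes) were matched by log2(RPKM + 0.5) after adding 1 constant to each library, RPKM using the total over those genes (largest deviation 3.9e-08). The authors' regressed log2 values lack 5 terms, found from the difference of both tables.

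Groups were compared with edgeR 4.0.16 in R 4.3.3 (filterByExpr, minimum count 10, which kept all 100 members; TMM; robust quasi-likelihood test; Benjamini-Hochberg over all genes), checked on simulated data. SE is the absolute log2 fold change over the square root of F. Alternatives used DESeq2 1.42.0 and limma 3.58.1. The members and lists were chosen with earlier results of these data known. Named gene IDs are the first 10, the 2 with the smallest p in each direction, the most and least variable, the extreme pairs, the last member and the next gene ID, and the 3 genes most like the first.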

Additional observations from a re-analysis of the deposited data

How the results depend on the processing

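No member passed an adjusted p of 0.05 in any of 16 alternatives or in the 43 fits that left out 1 library. At an unadjusted p under 0.05, 0 members without covariates became 5 with total-count scaling, 10 with limma-voom, 1 with the first removed term, 8 with all 5 terms, 18 in the libraries at 0 of that term, 4 and 3 in the authors' normalized and regressed values with limma, and 1 among the 200 most abundant genes. It ranged from 0 to 3 with 1 library left out (3 without resident replicate 14). The median log2 fold change of 0.09 turned to -0.12 with the 5 terms, to -0.11 in the regressed values and to -0.03 with total-count scaling, and ranged from 0.06 to 0.14 with 1 library left out. Leaving out 1 library put the share difference of 3.91 percentage points between 2.91 and 4.60. The difference was 7.17 in the libraries at 0 and 0.44 in those at 1, and whether these differ was not tested. The fold change of ENSSTOG00000008000 reversed to -0.28 in the libraries at 1, and with 1 library left out it ranged from 0.21 to 0.72. Of the 24 block 1 members, 14 to 21 had an unadjusted p under 0.05 among the libraries at 0 with 1 of them left out, an alternative chosen after seeing the data. The count was 14 when disperser replicate 4, 7 or 12 was the library left out. Past the adjusted threshold the count was 0 in each of these fits. The 24 members are not independent, and the share of all genes in these fits is not given here. With all 22 libraries at 0, 4.33% of all genes were higher in dispersers at the unadjusted threshold. The cause of these changes was not tested. No paired analysis was possible, because no label used here links a disperser with a resident. The labels carry no replicate numbers, and those used here were given in accession order.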
